A study of Mus musculus with 4 samples.

Results

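The cytosolic ribosomal protein genes were described in leukemic blasts of mice, taken from peripheral blood and from spleen. A gene was a member if its symbol in the array annotation was Rpl or Rps followed by a digit, or Rpsa, Rplp0, Rplp1 or Rplp2, leaving out the Rps6k kinases and pseudogene names. Probe sets, the groups of short probes that report a transcript on these Affymetrix arrays, counted only where the annotation gave them a single gene. This gave 50 members of 18193 genes, 24 of the small subunit and 26 of the large subunit, each represented by the probe set of highest mean. The 4 arrays held total RNA of blasts sorted for GFP, a reporter carried by the retrovirus, from 2 untreated mice, with blood and spleen from each mouse. All 4 samples share the same origin: the leukemia, of the megakaryoblastic type M7, arose after retroviral insertional mutagenesis of fetal progenitors with a mutant Gata1 (Gata1s). The samples carry one leukemia designation in the labels, T6(6), so that the spread between replicates is that between 2 animals with this leukemia, and strain and age are not given in the sources used here. No healthy or Gata1 wild-type sample was analysed here.

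The ribosome joins a small subunit, which reads the mRNA, and a large subunit, which forms the peptide bond, and each carries its own set of proteins in about equal numbers of copies. Their mRNAs are among the most abundant in growing cells and typically begin with a run of pyrimidines, the 5′ terminal oligopyrimidine tract, through which mTOR signalling controls their translation. In blood formation the family is known from Diamond-Blackfan anemia, in which one copy of a ribosomal protein gene is lost and red cell precursors fail. Loss of full-length GATA1 protein is another known cause of that anemia. Many of these genes have processed pseudogenes nearly identical to the mRNA, which makes probes hard to assign to a single gene.

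The start sites are shown because the tract is a shared feature of the family that the name rule did not use. RefSeq (GRCm38.p6) promoter sequences matched 44 of the 50 members; Rpl7, Rpl8, Rps14, Rps20, Rps29 and Rps4l had no match. Each window runs from 15 bases before the annotated start to the 15 bases from the start on, on the gene's strand, 5′ to 3′, and capitals mark the longest run of C or T where it has at least 8 bases. The windows are those of a bright large subunit member, of the S6 kinase target Rps6, of a stalk protein, of Rpl14, whose one-gene probe set was dim, and of the paralogs that the results below turn on, with Rps27 and Rpl22 beside theirs.
Rpl35 (chr2:39005117-39005146, minus strand): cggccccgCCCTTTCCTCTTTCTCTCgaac
Rps6 (chr4:86857353-86857382, minus strand): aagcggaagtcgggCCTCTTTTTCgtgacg
Rplp2 (chr7:141447636-141447665, plus strand): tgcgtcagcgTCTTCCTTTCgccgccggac
Rpl14 (chr9:120571502-120571531, plus strand): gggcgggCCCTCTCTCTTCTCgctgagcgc
Rps27 (chr3:90213634-90213663, minus strand): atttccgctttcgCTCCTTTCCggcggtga
Rps27l (chr9:66946071-66946100, plus strand): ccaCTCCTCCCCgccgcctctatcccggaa
Rpl22 (chr4:152325711-152325740, plus strand): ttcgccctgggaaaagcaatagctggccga
Rpl22l1 (chr3:28805493-28805522, plus strand): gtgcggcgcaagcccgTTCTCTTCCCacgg
Rpl7l1 (chr17:46782642-46782671, minus strand): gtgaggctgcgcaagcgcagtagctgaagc

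A run of at least 8 pyrimidines on the gene's strand lay in this window for 18 of 44 members (40.9%) and for 1148 of 9406 tested genes with a promoter (12.2%). In Rps6, Rpl35 and Rplp2 the run covers the annotated start, whereas in Rps27l it ends before it. The hexamer CGGAAG on either strand, the core that factors of the ETS family bind, was found in the 300 bases around the start of 31 of 44 members (70.5%) and of 2915 of 9406 tested genes (31.0%). Where a gene has several annotated starts, the one listed first was used. A match describes letters, not a bound site, and annotated starts can be off by some bases.

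Median intensity over all probe sets lay between 103.7 and 110.6 on the 4 arrays. Per-array values are given throughout in a fixed order, mouse 1 before mouse 2 and, within each mouse, blood before spleen. The blasts carried markers of their labelled lineage: the platelet factor Pf4 had intensities from 7507 to 8680, the platelet integrin chain Itga2b from 4237 to 4990 and Gata1 from 2692 to 3524. Markers of some other blood cells moved between the samples: 10 granulocyte markers summed to 6831, 4170, 17168 and 1162, and all 8 that were tested were lower in spleen in both mice. The 8 megakaryocyte markers on the array summed to 19285, 22311, 18997 and 23644, and 7 of them were higher in spleen in both mice. The 10 markers of macrophages and monocytes summed to 1300, 2254, 3438 and 1025, and 8 markers of T and NK cells to 6474, 7457, 8951 and 4778. The T and NK sum moved mainly with Gzma, which had 1338, 2757, 3486 and 171. Klrd1 was likewise highest in blood of mouse 2, at 238. Cd3e had from 180 to 288 and Cd8a from 170 to 222. For 6 erythroid markers the sums were 3946, 4018, 4328 and 4055, and for 5 B cell markers 759, 876, 790 and 825. The erythroid sum came largely from Klf1 and Epor, at means of 1943 and 1033, with Slc4a1 and Ermap at 498 and 503. Hba-a1 had only from 65 to 100 and Alas2 from 14 to 37, and both were too dim to be tested. Single genes of other lineages differed widely in level, and only some moved much between the samples. Camp was below 0 in spleen of mouse 2 and C1qa was below 0 on every array except spleen of mouse 1. In contrast, S100a9 reached 5862 in blood of mouse 2, Nkg7 had from 3556.5 to 4159.2 and the erythroid factor Klf1 from 1762 to 2081. The part of these cells in the values below was not tested, and in RNA of many cells fewer cells of a type and less RNA per cell cannot be told apart.

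Ribosomal protein probe sets were among the brightest on the arrays. Of the 20 brightest genes 17 were members, and of the 50 brightest 32 were. An intensity of 4000 or more on average was reached by 38 members, 18 of 24 small subunit genes and 20 of 26 large subunit genes, and the other 12 lay below 1000. No member lay between Rps27l, at 4219 ± 655 (SD, n = 4 arrays), and Rpl7l1, at 986 ± 107. The brightest small subunit members were Rpsa, which also serves as a laminin receptor, at 11968 ± 281, Rps18 at 11259 ± 143 and Rps2 at 11206 ± 1694. The brightest large subunit members were Rpl13a at 11342 ± 399, Rpl41, a very short protein, at 11190 ± 245 and Rpl37a at 10952 ± 356. Brightness is a property of a probe set as well as of its mRNA, so these values do not rank the mRNAs of different genes.

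**Figure D1:**
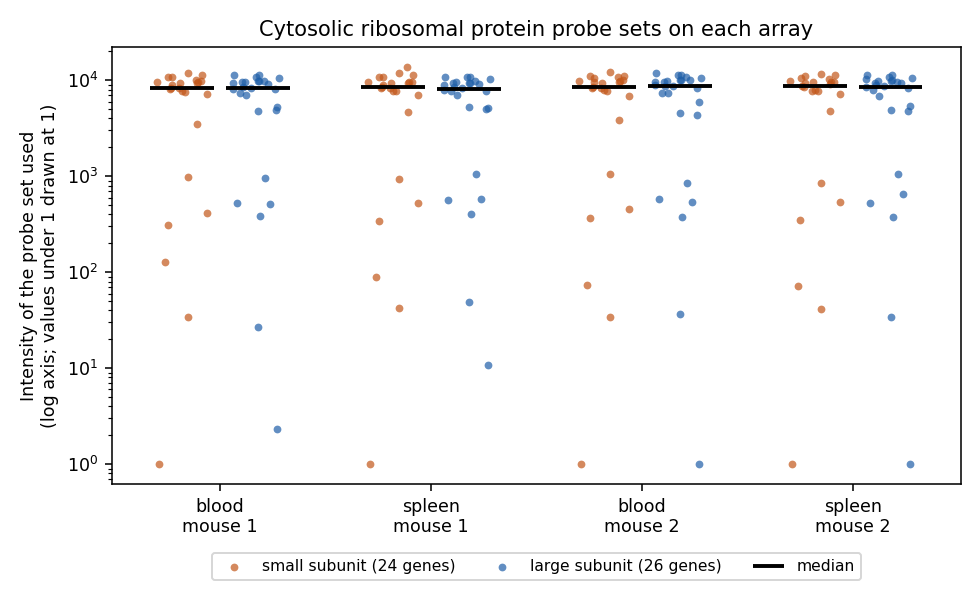
Intensity of the probe set used for each of the 24 small and 26 large subunit members on each of the 4 arrays (log axis, values under 1 drawn at 1); each point is a gene and black bars are medians. On every array most members form a band near the top of the scale with a tail of 12 dim members, and the medians of the subunits lie close together, at 8308 and 8257 in blood of mouse 1 and at 8621 and 8580 in spleen of mouse 2.

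The small and large subunits had like brightness. Over all members the median intensities of the small subunit were 8308, 8422, 8428 and 8621, and those of the large subunit were 8257, 8120, 8703 and 8580. Among the 45 members that passed the filter on dim genes, a mean at or above the median probe set, the small subunit's median level was higher by 0.10 on the log2 scale. The same gap was -0.0016 with all 50 members and -0.0032 with the 38 bright members, so it rests on which dim probe sets are counted. It was 0.086, 0.094, 0.094 and 0.069 on the 4 arrays, close to constant.

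Blasts of the spleen and of the blood had nearly equal intensities on the probe sets used. Of the 50 members, 29 had a mean intensity of 8000 or more, and the highest value of an array lay between 12299 and 13690. Whether signals so near the top understate differences in mRNA was not tested. The median difference of spleen minus blood over the 45 tested members was -0.0060 in mouse 1 and -0.0064 in mouse 2 on the log2 scale, where all 11614 tested genes had medians of 0.065 and 0.0065. The median over both mice was -0.0073, and it was -0.030 without blood replicate 1 and 0.011 without spleen replicate 1, so its sign is not settled. Both mice differed by less than 0.1 for 30 of the 45 members (66.7%), against 12.3% of all tested genes. Below 0.2 in both mice were 39 members (86.7%), against 39.0% of all tested genes. Among members at 4000 or more, 29 of 38 differed by less than 0.1 in both mice (76.3%), beside 102 of 285 other genes at 4000 or more (35.8%). At the limit of 0.2 these were 36 of 38 (94.7%) and 214 of 285 (75.1%). The other genes were dimmer, with a median intensity of 5151 against 9464 for the members, so brightness was not matched here. With limma, 0 of 45 members passed an adjusted p of 0.05 over all genes (background 0.0% of genes), and the adjusted p of members ran from 0.32 to 0.998. At an unadjusted p under 0.05, 1 member was higher in spleen (background 8.12%) and 0 were lower (background 4.31%). The standard errors, which limma draws in part from the spread of all genes, lay between 0.11 and 0.17. They do not give a gene's own spread. Rps26 and Rps20, with SDs of 0.71% and 1.15% of their means, both had an error of 0.109. With an intensity trend in the fit, the error of Rps18 was 0.047 in place of 0.109. With 2 arrays per tissue, changes well above the errors of the main fit could also go uncalled. The largest difference of a tested member, 0.38 for Rps27l, had a limma adjusted p of 0.32.

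The signs within the mice were counted next, and these counts move with small shifts of scale. Higher in spleen in both mice were 12 of 45 members (26.7%; background 38.5%) and lower in both were 17 (37.8%; background 25.1%). With quantile normalization lower in both were 6 members, and with arrays centred on their own median higher in both were 6. Both spleen arrays lay above both blood arrays for 8 members (17.8%; background 27.5%) and below them for 7 (15.6%; background 17.6%).

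**Figure D2:**
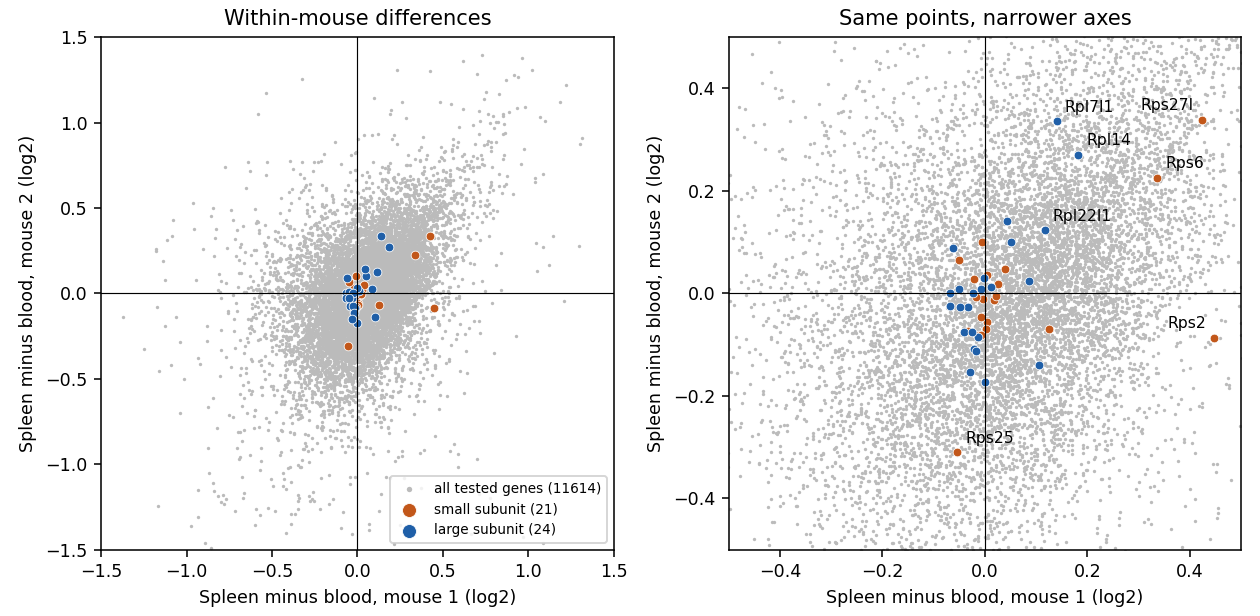
Spleen minus blood in mouse 1 (horizontal) against mouse 2 (vertical), in log2, for all 11614 tested genes (grey) and for 21 small and 24 large subunit members; the right panel shows the same points on narrower axes. Of the tested genes 74 lie outside the wider axes and 1438 outside the narrower ones. Most members crowd around 0 in both mice, and Rps27l stands at 0.42 and 0.34.

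The subunits were compared within each mouse. The median difference of spleen minus blood was 0.0025 in mouse 1 and -0.010 in mouse 2 for the 21 tested small subunit members. For the 24 tested large subunit members it was -0.016 and 0.0012. Small minus large was thus 0.019 in mouse 1 and -0.011 in mouse 2, opposite in sign, so its direction is not settled. Among bright members, lower in spleen in both mice were 6 of 18 small and 10 of 20 large subunit genes (background 25.1%). Higher in both were 4 of each (background 38.5%). Such counts move with small shifts of scale, as stated above, so they do not settle a contrast of the subunits. Members of a subunit are not replicates, and no p is given for this comparison.

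The small subunit members named for their roles stayed close to level. Rps19, the gene most often mutated in Diamond-Blackfan anemia, had intensities of 8297, 8251, 8282 and 7824. Both spleen values lay below both blood values, by a difference of -0.045 ± 0.11 (SE). Rps14, the gene lost in the 5q- syndrome, had 8149, 8379, 8407 and 8687. It differed by 0.044, with values higher in mouse 2 than in mouse 1 in both tissues. The other probe set of Rps14, at a mean of 7469, was lower in spleen in both mice, with a difference of -0.041. Rps24, which is needed to process the precursor of 18S rRNA, had 8989, 8962, 9515 and 9448, and its mice differed by more than its tissues.

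Rps26, which lies at the mRNA exit channel, was the steadiest member, with 7627, 7747, 7738 and 7708 and a coefficient of variation of 0.71%. Rpsa had 12033, 11930, 12295 and 11615, with both spleen values below both blood values and a difference of -0.047 ± 0.11. Of 14 listed proteins of the small subunit head, 9 were tested members and 8 of them differed by less than 0.1 in both mice. Among the 10 tested members known from Diamond-Blackfan anemia, 0 were higher in both mice, 5 were lower in both, and the median difference was -0.030, with 8 of 10 within 0.1 in both mice (80.0%). Over all 45 tested members 26.7% were higher in both mice, 37.8% lower in both and 66.7% within 0.1. Over all tested genes these shares were 38.5%, 25.1% and 12.3%.

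The large subunit members with known roles also had small differences. Rplp0, which anchors the stalk that recruits elongation factors, had intensities of 9373, 8974, 9620 and 10224. It went down in one mouse and up in the other, with a difference of 0.013 ± 0.12. Its partner Rplp2 had 9534, 9609, 9827 and 9916, a difference of 0.012, and Rplp1 had no one-gene probe set. Rpl11, which carries 5S rRNA together with Rpl5 and binds Mdm2 when ribosome assembly fails, had 7069, 6981, 7445 and 6883. Both spleen values lay below both blood values, by -0.066 ± 0.11. Rpl4, which lines the peptide exit tunnel, had 10458, 10400, 10568 and 10637 and differed by 0.00069. Rpl39, another tunnel protein, had 5251, 5147, 5989 and 5385, with a difference of -0.091 ± 0.12 that came mainly from mouse 2. At the tunnel exit, Rpl35 had 9901, 9900, 10910 and 9670. It was level in mouse 1 and lower in spleen of mouse 2 by 0.17, and blood of mouse 2 was its highest array. Rpl10a had 9503, 9287, 9644 and 9462 and was lower in spleen by 0.033 and 0.027 in the mice. Rps28 of the small subunit had 9755, 9532, 10190 and 9684, and both of its spleen values lay below both blood values.

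Among bright large subunit members the largest difference was that of Rpl22l1, a paralog of the RNA-binding protein Rpl22. Rpl22l1 had 4825, 5233, 4549 and 4955. Both spleen values lay above both blood values, by 0.12 in each mouse (0.12 ± 0.11, limma adjusted p = 0.70). Rpl22 had 8081, 7815, 8401 and 8243 on the probe set used, a difference of -0.038. Its other probe sets differed by 0.11 and 0.29, so that the 3 probe sets of Rpl22 disagreed in direction.

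Rps27l, a paralog of Rps27 known as a target of p53, differed most among all tested members. Its intensities were 3505, 4704, 3825 and 4841. Both spleen values exceeded both blood values, and the difference was 0.42 in mouse 1 and 0.34 in mouse 2, or 1.30-fold over both. The fit gave 0.38 ± 0.12 (SE) with an unadjusted p of 0.016 and a limma adjusted p of 0.32, which did not pass over all genes. Without blood replicate 1 the difference was 0.32, and without spleen replicate 2 it was 0.36. Its highest value over the alternative fits was 0.44. The other 2 probe sets of Rps27l differed by 0.41 and 0.37, so that all 3 pointed the same way by like amounts. These probe sets report the same RNA on the same arrays and are not replicates.

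Rpl7l1, related to Rpl7, had 968, 1068, 842 and 1067. Its spleen values were the higher ones, by 0.24 ± 0.12 (limma adjusted p = 0.48), and its other 2 probe sets differed by 0.33 and 0.17. Rpl7 itself had 8358, 8222, 8711 and 8721, a difference of -0.011. Of the 4 tested members that are paralogs or only named like ribosomal proteins, 3 were higher in spleen in both mice (75.0%; background 38.5%): Rps27l, Rpl22l1 and Rpl7l1. The fourth, Rps19bp1, encodes a binding partner of Rps19 and no ribosomal subunit; it had 311, 341, 367 and 349. The 41 tested core subunit genes had a median difference of -0.012. In both mice 9 of them were higher (22.0%; background 38.5%) and 17 lower (41.5%; background 25.1%). The difference between the 4 genes and the core genes was not tested.

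**Figure D3:**
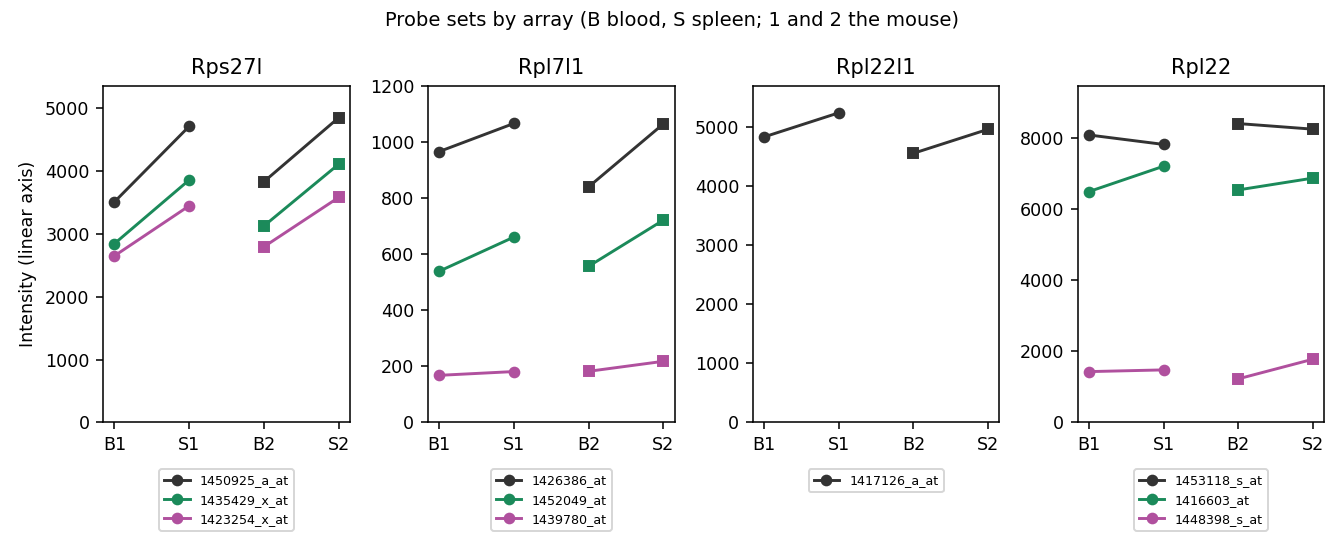
Intensity (linear axis from 0) of every one-gene probe set of Rps27l, Rpl7l1, Rpl22l1 and Rpl22 in blood (B) and spleen (S) of mouse 1 (circles) and mouse 2 (squares); lines join the tissues of a mouse. All 3 probe sets of Rps27l and all 3 of Rpl7l1 are higher in spleen in both mice, while the brightest of Rpl22 is lower and its other 2 are higher.

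Paralogs known from other tissues were near the background of the array. Rps4l had values from -20.5 to -14.1 and Rpl39l, known from testis, from -1.19 to 10.8. Rpl3l, known from striated muscle, had 27.1, 48.9, 36.4 and 34.3. These 3 were below the filter, together with Rps16 and Rps27, and were not tested. Rps4x, the X-linked partner of Rps4l, had 9451, 9311, 9394 and 9585, a difference of 0.0037.

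Several members named for large differences had dim one-gene probe sets, while a brighter probe set of the same gene, shared in the annotation with pseudogenes or predicted copies, was level. Rps6, the substrate of S6 kinase, had 415, 528, 458 and 538 on its one-gene probe set. Both spleen values were higher, by 0.28 ± 0.12 (limma unadjusted p = 0.051, adjusted p = 0.41). The brightest shared probe set of Rps6 had 10811, 10219, 10659 and 11059, a difference of -0.014. Rpl14 had 513, 585, 537 and 651, a difference of 0.23 ± 0.12 (limma adjusted p = 0.49), and its shared probe set, at 9249, 9290, 9712 and 9632, differed by -0.0028. Rps25, a protein of the small subunit head used by some viral entry sites, had 983, 946, 1058 and 850. It was lower in spleen by 0.18 on the one-gene probe set (-0.18 ± 0.12), mostly in mouse 2, and its shared probe set differed by -0.0070. Rps16 and Rps27 had one-gene probe sets at means of 38.1 and 90.7, with differences of 0.21 and -0.23, and shared probe sets at 11277 and 8036, with differences of -0.032 and -0.070. Which transcripts the dim probe sets report was not tested.

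**Figure D4:**
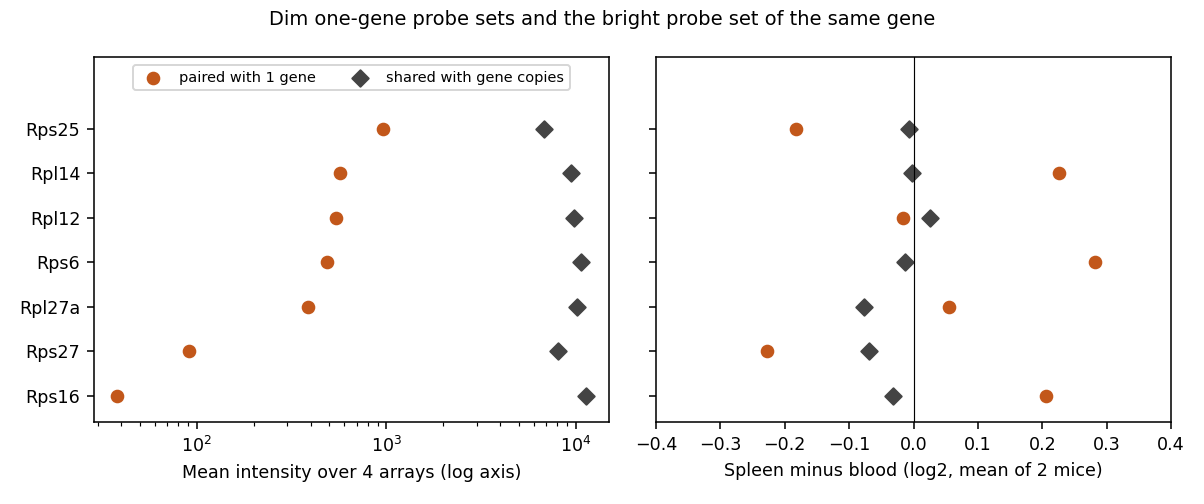
Mean intensity over 4 arrays (left, log axis) and spleen minus blood as the mean of 2 mice (right, log2) for the 7 dim members that also have a bright probe set shared with copies of the gene. The one-gene probe sets (circles) spread from -0.23 to 0.28, while the shared ones (diamonds) lie between -0.076 and 0.025.

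A further disagreement concerned single arrays and single probe sets. Rps2 had 10032, 13690, 10869 and 10232, and its value in spleen of mouse 1 was the highest of that array. Its difference was 0.45 in mouse 1 and -0.087 in mouse 2, and a shared probe set of Rps2 had 10860, 10954, 11270 and 11248, with differences of 0.012 and -0.0028. Without spleen replicate 1 the difference of Rps2 was -0.029. Rps3, which lies at the mRNA entry, had 9537, 9490, 9871 and 9564 and differed by -0.026. Another of its probe sets, at 477, 639, 404 and 643, differed by 0.53. Of 47 other probe sets above the filter, in 21 members, 43 differed by less than 0.2 from the one used and that of Rps3 was the sole one to differ by 0.5 or more.

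Between the animals, the median member was slightly higher in mouse 2. The median of mouse 2 minus mouse 1 over the 45 tested members was 0.044 in blood and 0.032 in spleen. The medians over all tested genes were 0.023 and -0.039. With 1 animal on each side there is no test of this.

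Other genes of translation were read beside the members. Fau, which encodes the small subunit protein S30 fused to a ubiquitin-like protein, was lower in spleen in both mice, by 0.059 in mouse 1 and 0.14 in mouse 2. Of 29 tested translation factors and other mRNAs with a terminal oligopyrimidine tract, 17 were higher in spleen in both mice (58.6%; background 38.5%) and 4 were lower. At an unadjusted p under 0.05, 2 were higher (6.90%; background 8.12%) and 1 was lower (3.45%; background 4.31%), and 0 passed over all genes with limma. The histone chaperone Nap1l1 differed by 0.37 ± 0.12, the initiation factor Eif2s3x by 0.36 ± 0.11 and the filament protein Vim by -0.45 ± 0.15. The elongation factor Eef1a1, at 11800 on average, differed by -0.030 and Eef2 by 0.079. Of 76 tested proteins of the mitochondrial ribosome, 55 were higher in spleen in both mice (72.4%) and 2 were lower, with medians of 0.14 in mouse 1 and 0.10 in mouse 2. At an unadjusted p under 0.05, 4 of them were higher (5.26%; background 8.12%) and 0 were lower (background 4.31%). The difference between these lists and the cytosolic members was not tested.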

How the data were processed

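The values the authors deposited are linear intensities per probe set. Their summarisation, background step and scaling are not stated in the sources used. Biotinylated cRNA was made by the Affymetrix protocol, per the labels' protocols. Negative intensities were raised to 0 and the log2 of the value plus 16 was used, so differences of dim genes are understated. Of 45101 probe sets, 34945 had 1 symbol and 932 several. Genes were named through the platform annotation and RefSeq. The 11614 genes with a mean at or above the median probe set (intensity 106.4) were fitted with limma 3.58.1 in R 4.3.3 (tissue as the sole term, two-sided, Benjamini-Hochberg), and the code was tested on simulated data. The number of arrays, 2 per tissue, limits precision. Mouse numbers pair the arrays, since both tissues came from the same animal. Mouse 2 minus mouse 1 in blood correlated with the same in spleen at r = 0.10 across tested genes. Named members were, by rule, the 6 with the largest same-direction differences each way, the 5 lowest p-values, the brightest and dimmest 3 per subunit, a set of known genes, paralog pairs, and members whose probe sets disagreed; Rpl4, Rpl35 and Rps19bp1 stand for their role lists. Members and lists were chosen with earlier results of these data known.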

Additional observations from a re-analysis of the deposited data

How the results depend on the processing

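Of the 45 tested members 0 passed over all genes under each of the 16 alternatives, including those that called other genes, namely the intensity trend (45 genes), the stricter filter (40) and leaving out spleen replicate 1 (20). At an unadjusted p, 1 member was higher in spleen; this was 2 with an offset of 64, the stricter filter or the replicate block, 0 with core subunit genes only, and from 0 to 1 without a replicate. The replicate block changed no other count of members or median. Members higher in both mice fell from 12 to 6 with centred arrays, and those lower in both from 17 to 6 with quantile normalization; such counts need both mice and were not computed without a replicate.

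The median difference of members, -0.0073, was 0.00034 with no filter, 0.013 with quantile normalization, -0.042 with centred arrays, 0.0094 with the mean of all probe sets, 0.0015 without probe sets of the suffix _x_at or _s_at, -0.012 with core genes only or with members at 1000 or more (chosen after seeing the data), and from -0.030 to 0.011 without a replicate. That of the small subunit, 0.0037, was 0.016 with quantile normalization, -0.031 with centred arrays and from -0.021 to 0.012 without a replicate. That of the large subunit, -0.019, was 0.0019, -0.054, 0.011 and 0.0064 with quantile normalization, centred arrays, the mean of probe sets and without the suffixes, -0.032 with members at 1000 or more, and from -0.054 to 0.010 without a replicate. Small minus large, 0.022, was -0.0029 with the mean of probe sets, -0.010 without the suffixes and from -0.0040 to 0.048 without a replicate. The gap in level, 0.10, was -0.0016 with no filter, -0.82 with the mean of probe sets, 0.12 without the suffixes, 0.058 with core genes and -0.0032 with members at 1000 or more. Of named members, Rps2 ran from -0.029 without spleen replicate 1 to 0.39 without spleen replicate 2, and Rps6 was -0.0085 with the mean of its probe sets, which adds a dim one; the other changes had no tested cause. Rps27l stayed between 0.32 and 0.44, with an adjusted p from 0.11 to 0.85.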

Other observations

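A further 24 ribosomal protein genes were reached through probe sets that the annotation pairs with the gene and its pseudogenes, predicted copies or rt copies, a reading chosen after the data were seen. All 24 had a mean intensity above 1000, between 6599 and 12190 with a median of 9411. Their median difference of spleen minus blood was -0.021 in mouse 1 and -0.031 in mouse 2, with single genes from -0.12 to 0.075. In both mice 3 of the 24 were higher in spleen (background 38.5%) and 13 were lower (background 25.1%). Such counts move with small shifts of scale, as stated above. The 5S rRNA binding protein Rpl5 had 11370, 11118, 11084 and 11342 in the array order used above, a difference of 0.00038. Rplp1 of the stalk had 10465, 10771, 10868 and 10394 and differed by -0.011. The lowest difference was that of Rpl31, at the tunnel exit, with 10589, 9780, 11301 and 10339, lower in spleen by 0.11 in mouse 1 and by 0.13 in mouse 2, and the highest that of Rpl30, at 0.075. These probe sets can take up RNA of the copies, and no test was run on them.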
